A study of Rattus norvegicus with 6 samples.

Results

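The muscle miRNAs miR-1, miR-133, miR-206, miR-208 and miR-499 were examined in exosomes, small membrane vesicles, from the plasma of male Sprague Dawley rats of 200 to 250 g. The 9 mature miRNAs, rno-miR-1b, rno-miR-1-3p, rno-miR-206-3p, rno-miR-133a-3p, rno-miR-133a-5p, rno-miR-133b-3p, rno-miR-499-5p, rno-miR-208a-3p and rno-miR-208b-3p, were picked by name out of 420 measured mature miRNAs because they are known from skeletal and cardiac muscle. Earlier results of these data were known when they and the other lists were chosen. EXO2 comprised 3 small RNA libraries from rats that had received melatonin, the hormone of the pineal gland, intraperitoneally at 10 mg/kg on 7 consecutive days. EXO1 comprised 3 libraries from rats that had received the solvent alone, 5% DMSO in PBS, over the same 7 days. The labels give this solvent for the melatonin too, whereas the methods of the study name saline with DMSO. Plasma was taken on day 8 in both groups. Neither the age nor any pooling of the animals is given in the sources used here. Nothing ties the libraries to separate animals either, so every p-value measures only how the libraries spread, which may be technical.

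miRNAs are short RNAs that guide the silencing of messenger RNAs, mainly through the seed, bases 2 to 8 from the 5′ end. miR-1 and miR-133a are made from shared primary transcripts in heart and skeletal muscle, where miR-1 favours muscle differentiation and miR-133 favours myoblast proliferation. miR-206 and miR-133b come from another shared transcript, used mostly in skeletal muscle. miR-208a, miR-208b and miR-499 lie in introns of myosin heavy chain genes, as described in mouse, and miR-208a is largely restricted to the heart. Several of these miRNAs appear in blood after injury of heart or skeletal muscle. In plasma exosomes, release from more muscle cells and release of more RNA per cell cannot be told apart.

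The mature sequences are shown because the 3 miRNAs of the miR-1 family differ by few bases, which bears on how their reads can be told apart. All 9 members were matched by name in RefSeq (rat build GRCr8). Each is written 5′ to 3′ with its seed in capitals.
miR-1b: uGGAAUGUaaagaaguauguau
miR-1-3p: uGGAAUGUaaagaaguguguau
miR-206-3p: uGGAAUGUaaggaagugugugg
miR-133a-3p: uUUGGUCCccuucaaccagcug
miR-133b-3p: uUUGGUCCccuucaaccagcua
miR-133a-5p: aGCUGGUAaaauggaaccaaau
miR-208a-3p: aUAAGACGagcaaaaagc
miR-208b-3p: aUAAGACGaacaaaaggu
miR-499-5p: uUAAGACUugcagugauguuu

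The 9 members thus carry 5 seeds. miR-1b, miR-1-3p and miR-206-3p share 1 seed, miR-133a-3p and miR-133b-3p another, and miR-208a-3p and miR-208b-3p again another, while miR-133a-5p and miR-499-5p each have their own. None of these seeds was found in any other of the 382 measured miRNAs that have a RefSeq sequence. With positions counted from 1 at the 5′ end, miR-1-3p differs from miR-1b by A17G alone. miR-206-3p differs from miR-1b by A11G, A17G, A21G and U22G. miR-133b-3p differs from miR-133a-3p by G22A. The miR-1b sequence is the one known as miR-1 in human and mouse.

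The hairpin precursors of the 2 miR-1 forms are given because the ratio of these forms is compared between the groups. The mature strand is in capitals.
Mir1b: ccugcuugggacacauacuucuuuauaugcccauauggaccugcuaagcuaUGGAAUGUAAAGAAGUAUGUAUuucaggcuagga
Mir1: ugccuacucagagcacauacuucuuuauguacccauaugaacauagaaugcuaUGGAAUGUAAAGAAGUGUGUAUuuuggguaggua

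Mir1b is at chr3:187864685-187864769 on the plus strand and Mir1 at chr18:2160327-2160413 on the minus strand (GRCr8). Mir1 lies in the interval of the gene Mib1 together with Mir133a1, at chr18:2157872-2157958 on the minus strand. As annotated, the miR-1-3p and miR-133a-3p sequences thus come from neighbouring hairpins. Mir206, at chr9:30590697-30590780, and Mir133b, at chr9:30594582-30594665, both on the plus strand, lie in 1 long non-coding RNA gene. In the same annotation Mir208a lies within Myh6, Mir208b within Myh7 and Mir499a within Myh7b, the genes of myosin heavy chains.

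The libraries held 3033119 to 4999379 miRNA reads in EXO2 and 2279500 to 5868405 in EXO1. The deposited value, headed CPM, was taken as the number of reads scaled by a library factor and is called normalized CPM here. All read counts were computed from it, with the lowest value above 0 in each library taken as 1 read. In most libraries too few low values establish this step, so the counts, intervals and floors depend on it. These factors were 0.941 to 1.38 in EXO2 and 0.264 to 1.86 in EXO1. The lowest factor was that of EXO1 replicate 1, in which 82.6% of the reads came from the 9 members, so a value there can exceed the total that its unit allows. Outside the members, EXO2 held 2995789 to 4923914 reads, and EXO1 held 1022843, 1749983 and 2794125 in replicates 1, 2 and 3. A value of 0 allows up to 3 reads, or 0.538 to 0.798 normalized CPM in EXO2 and 0.649 to 1.90 in EXO1. Intervals and floors cover counting error only, since reads that carry no molecular identifier cannot be counted as separate molecules.

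The members made up a small and similar part of each EXO2 library and a widely varying part of the EXO1 libraries. They took 1.23%, 1.51% and 0.739% of the reads of EXO2 replicates 1, 2 and 3, against 82.6%, 23.2% and 0.909% of EXO1 replicates 1, 2 and 3. EXO1 replicate 3 thus lay within the range of EXO2, whereas the other EXO1 libraries lay far above it. Most of these reads were miR-1b, which made up 80.9% to 87.3% of the member reads in EXO2 and 93.4% to 98.0% in EXO1. The other 8 members together took 0.210%, 0.191% and 0.141% of the reads in EXO2 and 1.62%, 0.694% and 0.0602% in EXO1.

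**Figure D1:**
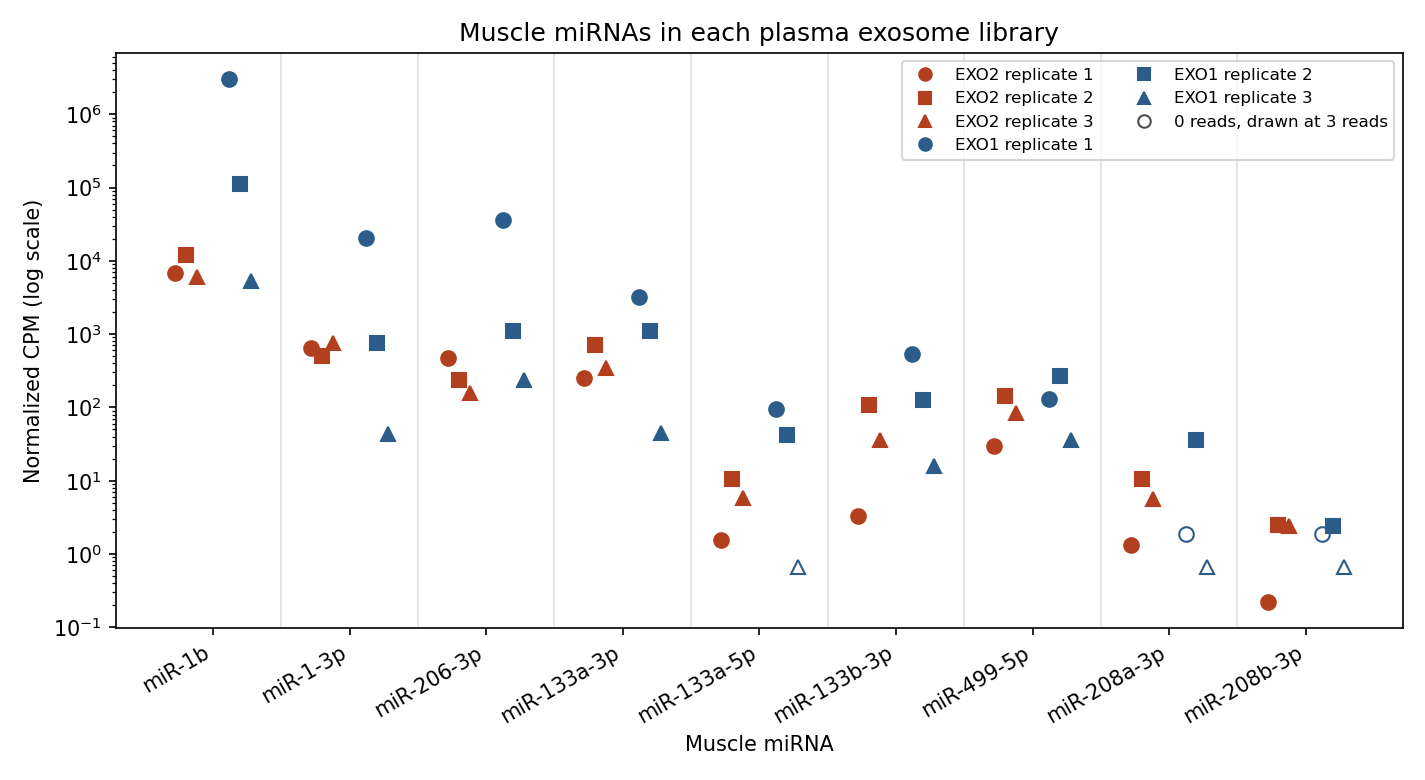
Normalized CPM of the 9 muscle miRNAs (log axis) in the 3 EXO2 libraries, left of each column, and the 3 EXO1 libraries, right; open symbols are libraries with 0 reads, drawn at the value of 3 reads. For miR-1b the EXO2 libraries lie between 5935 and 11829, and the EXO1 libraries between 5287 and 3009709.

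rno-miR-1b, which restrains growth and favours differentiation in muscle, was the most abundant member in every library. It stood at 6856, 11829 and 5935 normalized CPM in EXO2 replicates 1, 2 and 3, against 3009709, 111134 and 5287 in EXO1 replicates 1, 2 and 3. The EXO2 values differed by 1.99-fold and the EXO1 values by 569-fold, and the groups overlapped through EXO1 replicate 3. By reads, miR-1b ranked 14, 11 and 17 among all miRNAs in EXO2, and it ranked 1, 1 and 21 in EXO1. In EXO1 replicate 1, its 4750326 reads were 80.9% of the library (95% Wilson interval 80.92% to 80.98%). Its log2 fold change was -3.95 (standard error 1.52, unadjusted p = 0.0207, adjusted p = 0.333 by limma). Without EXO1 replicate 1 it was -1.63 (adjusted p = 0.373), and without EXO1 replicate 3 it was -6.21 (adjusted p = 0.255).

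rno-miR-1-3p, the form that differs from miR-1b by a single base, was far less abundant and did not follow it between the groups. It had 650, 505 and 766 normalized CPM in EXO2, against 20632, 745 and 43.5 in EXO1. EXO1 replicate 1 was the highest and EXO1 replicate 3 the lowest of all 6 libraries, and the EXO2 libraries lay between them. By read count the EXO2 libraries were almost level, with 2934, 2814 and 2880 reads. The log2 fold change was -0.48 (limma, standard error 1.43, adjusted p = 0.864) and turned to 1.79 without EXO1 replicate 1 (adjusted p = 0.292).

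Within libraries, the split between these 2 forms of miR-1 separated the groups. miR-1-3p made up 8.65%, 4.10% and 11.4% of the reads of both forms in EXO2, against 0.681%, 0.666% and 0.816% in EXO1. The 95% Wilson intervals were 8.36% to 8.96%, 3.95% to 4.25% and 11.05% to 11.84% in EXO2, and 0.674% to 0.688%, 0.644% to 0.689% and 0.710% to 0.938% in EXO1. The EXO1 libraries kept nearly the same share although their miR-1b reads differed by 198-fold, with 23932 reads in replicate 3. The EXO2 libraries held 22303 to 65903 reads of miR-1b, a range that includes EXO1 replicate 3, yet miR-1-3p had 2814 to 2934 reads in EXO2 and 197 in that EXO1 library. On the log2 scale the ratio of miR-1b to miR-1-3p averaged 3.63 ± 0.82 in EXO2 and 7.10 ± 0.18 in EXO1 (SD, n = 3 each), a difference of -3.47 that does not depend on library scaling. A 2-sided exact permutation test gave p = 0.1, the smallest that 3 against 3 libraries allow (p = 0.2 after adjustment over 4 ratios). When each library was left out in turn, the difference was -3.93 to -3.13. How reads that match both sequences with a mismatch were assigned is not given in the sources used here, so the split between the forms is uncertain, and its part in the result was not tested.

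rno-miR-206-3p, a miR-1 relative of skeletal muscle, followed miR-1b more closely than miR-1-3p did over the 6 libraries pooled, but not within each group. It had 470, 237 and 158 normalized CPM in EXO2, against 35719, 1107 and 235 in EXO1. The 2 highest libraries were EXO1 replicates 1 and 2, and EXO1 replicate 3 lay just under EXO2 replicate 2. Its log2 fold change was -3.01 (standard error 1.25, unadjusted p = 0.0295, adjusted p = 0.336 by limma), and -0.97 without EXO1 replicate 1 (adjusted p = 0.468). Over the 6 libraries, Pearson's r of log2(normalized CPM + 1) with miR-1b was 0.97 for miR-206-3p and 0.84 for miR-1-3p, and over the 5 libraries without EXO1 replicate 1 it was 0.85 and 0.40. Within the groups the order was the other way. The log2 ratio of miR-1b to miR-206-3p had an SD of 0.93 in EXO2 and 1.18 in EXO1. For miR-1b to miR-1-3p the SD was 0.82 in EXO2 and 0.18 in EXO1. These are descriptions, since all members of a library share its depth and factor.

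The miR-133 members varied in EXO1 as well, by 71.5-fold for miR-133a-3p and 34.1-fold for miR-133b-3p. rno-miR-133a-3p, which promotes myoblast proliferation, had 252, 700 and 344 normalized CPM in EXO2, against 3222, 1094 and 45.1 in EXO1. EXO1 replicates 1 and 2 were above all EXO2 libraries and EXO1 replicate 3 was below all of them. Its log2 fold change was -0.47 (limma, standard error 1.11, adjusted p = 0.819), 0.81 without EXO1 replicate 1 and 0.032 without EXO1 replicate 2.

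miR-133b-3p, from the miR-206 transcript and 1 base away from miR-133a-3p, had 3.32, 109 and 36.2 normalized CPM in EXO2, against 542, 126 and 15.9 in EXO1. In EXO2 replicate 1 it was read only 15 times, which set it 32.7-fold under EXO2 replicate 2. Its log2 fold change was -2.02 (limma, standard error 1.39, adjusted p = 0.449). It was -0.72 without EXO2 replicate 1 and -0.83 without EXO1 replicate 1, and its unadjusted p was 0.0439 without EXO2 replicate 2 (-3.05) and 0.0408 without EXO1 replicate 3 (-3.33). miR-133a-5p, the other strand of the miR-133a hairpin, was low throughout, at 1.55, 10.6 and 5.85 in EXO2 and 93.8, 41.5 and 0 in EXO1. Its log2 fold change was -1.44 (limma, standard error 1.91, adjusted p = 0.674). In EXO1 replicate 3, 0 reads allow up to 0.663 normalized CPM.

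The members tied to cardiac and slow muscle myosin genes did not peak with miR-1b. miR-499-5p, from Myh7b, had 29.9, 141 and 83.3 normalized CPM in EXO2, against 131, 270 and 35.8 in EXO1. The highest library was EXO1 replicate 2, not the replicate 1 that was rich in miR-1b, and the groups overlapped. Pearson's r with miR-1b was 0.57 over the 6 libraries and 0.83 over the 5 without EXO1 replicate 1. Its log2 fold change was -0.61 (limma, standard error 0.93, adjusted p = 0.726). miR-208a-3p, from the cardiac myosin gene Myh6, had 1.33, 10.4 and 5.59 normalized CPM in EXO2 from 6, 58 and 21 reads, against 0, 36.1 and 0 in EXO1 from 0, 167 and 0 reads. EXO1 replicate 2 was again highest, and no read was found in EXO1 replicate 1, the library with 4750326 reads of miR-1b. miR-208b-3p, from Myh7, was near the floor everywhere, with 1, 14 and 9 reads in EXO2 and 0, 11 and 0 reads in EXO1. The log2 fold changes were 0.75 for miR-208a-3p (standard error 1.73, adjusted p = 0.815 by limma) and 0.70 for miR-208b-3p (standard error 0.99, adjusted p = 0.698 by limma). The change of miR-208a-3p was -0.12 without EXO1 replicate 1 or without EXO1 replicate 3.

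**Figure D2:**
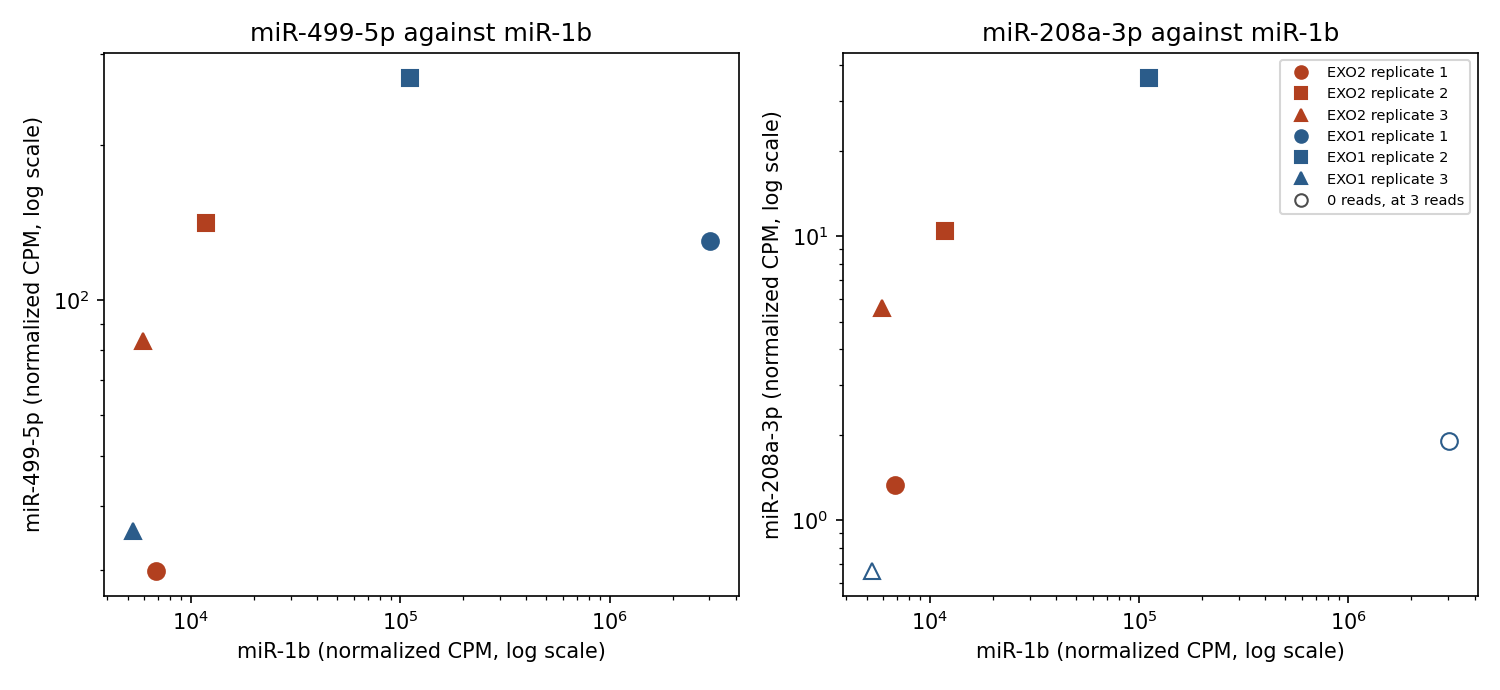
miR-499-5p (left) and miR-208a-3p (right) against miR-1b, all in normalized CPM on log axes, with 1 point per library of EXO2 and EXO1; open symbols are libraries with 0 reads, drawn at 3 reads. EXO1 replicate 1 has the highest miR-1b, 3009709, whereas miR-499-5p and miR-208a-3p are highest in EXO1 replicate 2, at 270 and 36.1.

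The make-up of the muscle signal thus differed between libraries of the same group. EXO1 replicate 1 exceeded EXO1 replicate 2 by 27.1-fold for miR-1b, 27.7-fold for miR-1-3p and 32.3-fold for miR-206-3p in normalized CPM. The corresponding excess was 2.95-fold for miR-133a-3p, 2.26-fold for miR-133a-5p and 4.31-fold for miR-133b-3p. For miR-499-5p replicate 1 was at 0.483 times replicate 2, and for miR-208a-3p it was at least 19.0-fold lower, taking 3 reads in place of 0. The miR-1 family, miR-133 and the members from myosin genes therefore ranked in this order, and no scaling of whole libraries can alter that order. EXO1 replicate 2 in turn exceeded EXO1 replicate 3 by 21.0-fold for miR-1b, 24.3-fold for miR-133a-3p, 7.56-fold for miR-499-5p and 4.71-fold for miR-206-3p, and by at least 62.7-fold for miR-133a-5p and at least 54.5-fold for miR-208a-3p, so the order seen between replicates 1 and 2 did not recur. These compare single libraries and have no replicate check.

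As a share of the member reads, miR-208a-3p, miR-208b-3p and miR-499-5p together made up 0.380%, 1.1396% and 1.244% in EXO2, against 0.00425%, 0.270% and 0.632% in EXO1. The share in EXO1 replicate 1 had a 95% Wilson interval of 0.00371% to 0.00487%. Set against the 8 members other than miR-1b, the heart members made up 2.23%, 8.99% and 6.51% in EXO2 and 0.216%, 9.03% and 9.54% in EXO1, so 5 of the 6 libraries lay between 2.23% and 9.54% and EXO1 replicate 1 lay apart.

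The neighbouring miRNAs of each transcript were then compared within each library, where scaling bears only on low members, through the pseudocount of 1. The log2 ratio of miR-1-3p to miR-133a-3p was 1.36, -0.47 and 1.15 in EXO2, against 2.68, -0.55 and -0.049 in EXO1. The groups overlapped, with means of 0.68 ± 1.004 in EXO2 and 0.69 ± 1.74 in EXO1 (SD, n = 3 each, 2-sided exact permutation test, p = 1.0). With miR-1b in place of miR-1-3p, a choice made after seeing the data, the ratio was 4.76, 4.08 and 4.11 in EXO2, against 9.87, 6.67 and 6.84 in EXO1. There every EXO2 library lay below every EXO1 library, EXO1 replicate 3 included, although the level of miR-1b in that library was like that of EXO2. In the annotation used, Mir1b is on chromosome 3 and the only listed hairpin of miR-133a-3p, Mir133a1, on chromosome 18. A miR-133a hairpin near Mir1b that this annotation lacks would not be seen. Whether miR-1b and miR-133a-3p share a transcript was therefore not settled.

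The log2 ratio of miR-206-3p to miR-133b-3p was 6.77, 1.12 and 2.10 in EXO2, against 6.04, 3.13 and 3.80 in EXO1. EXO2 replicate 1 was the highest, on the 15 reads of miR-133b-3p, while the other EXO2 libraries were the lowest of all. The means were 3.33 ± 3.02 in EXO2 and 4.32 ± 1.52 in EXO1 (SD, n = 3 each, 2-sided exact permutation test, p = 0.6, adjusted over 4 ratios p = 0.8). Between the strands of the miR-133a hairpin, the log2 ratio of miR-133a-3p to miR-133a-5p was 6.63, 5.92 and 5.65 in EXO2 and 5.09, 4.69 and 5.53 in EXO1. With the pseudocount of 1 the groups did not overlap (difference 0.97, 2-sided exact permutation test, p = 0.1, adjusted over 4 ratios p = 0.2), on as few as 7 reads of miR-133a-5p in EXO2 replicate 1. The separation was lost with the other settings, with a difference of 0.79 at a pseudocount of 0.5 (exact p = 0.3), 0.17 at 0.1 (exact p = 1.0) and 0.50 on recovered reads (exact p = 0.6). EXO1 replicate 3 had no read of miR-133a-5p, so its ratio is at least 68.0-fold when 3 reads stand in for 0, which is above the 66.1-fold and 58.7-fold of EXO2 replicates 2 and 3.

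**Figure D3:**
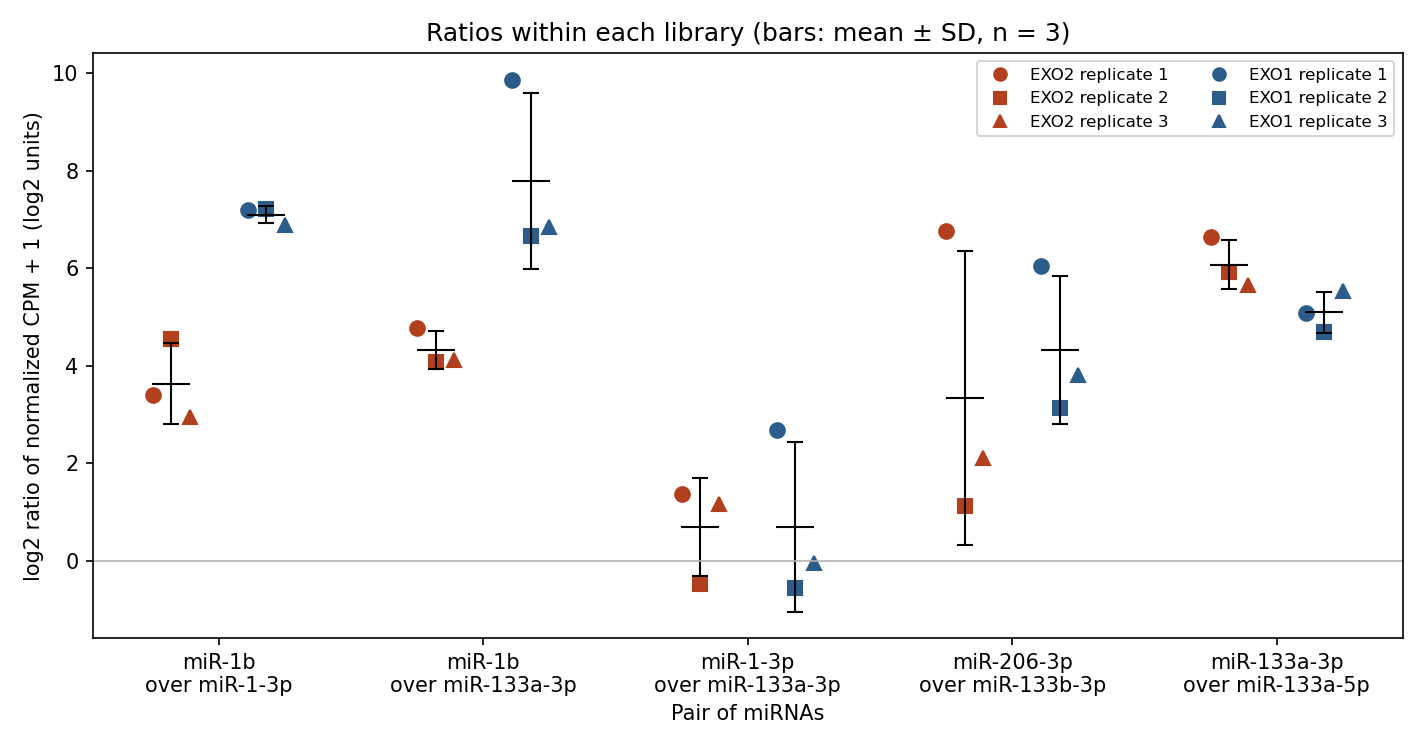
log2 ratios of pairs of members within each library, computed on normalized CPM + 1, with 1 point per library of EXO2 (left) and EXO1 (right) and bars for the mean ± SD (n = 3). For miR-1b over miR-1-3p the EXO2 libraries lie between 2.95 and 4.55 and the EXO1 libraries between 6.89 and 7.22.

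The fit over all miRNAs used limma, with a trend of the variance on the level, and log2(normalized CPM + 1). On this scale the change of low miRNAs depends on the pseudocount. At a pseudocount of 0.1 in place of 1, the log2 fold change went from -1.44 to -0.63 for miR-133a-5p. For miR-208a-3p it went from 0.75 to 2.63, and for miR-208b-3p from 0.70 to 2.13. The filter of more than 0 in at least 2 libraries left 410 miRNAs, and each of the 9 members was above 0 in at least 4 libraries. None of the members and none of the 410 miRNAs (0.0%) passed an adjusted p of 0.05, while 54 of the 410 had an unadjusted p under 0.05. The methods of the study used a fold change of more than 1.5 together with p under 0.05 before adjustment. Here these thresholds were applied to the unadjusted p of limma, whose variance is moderated, whereas the methods name another test for them. The calls therefore share the cutoffs of the study but not its test. By these thresholds 2 of the 9 members were lower in EXO2, miR-1b and miR-206-3p, and none was higher, where 7.32% of all 410 miRNAs were lower, 5.85% were higher and 13.2% were either (30, 24 and 54 miRNAs). The split depended on scaling, with 22 lower and 8 higher when scaled by library totals, 41 and 18 by median-ratio size factors, and 60 and 5 by the reads outside the members. miR-1b and miR-206-3p passed these thresholds under each of these scalings, with log2 fold changes of -4.59 to -3.64 for miR-1b. Neither passed without EXO2 replicate 1, without EXO1 replicate 1, without EXO1 replicate 2 or with an unmoderated variance per miRNA, and without EXO1 replicate 3 there were 5 members past the thresholds, joined by miR-1-3p, miR-133a-3p and miR-133b-3p.

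The median log2 fold change was -0.61 over the 9 members, 7 negative and 2 positive, against -0.56 over all 410 miRNAs. None of the members had every EXO2 library above or below every EXO1 library, compared with 21.0% of all miRNAs (11.5% above and 9.51% below). The median of all miRNAs was 0.13 higher when scaled by library totals and 0.50 lower (-0.50) when scaled by the reads outside the members, and no member changed sign under either.

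**Figure D4:**
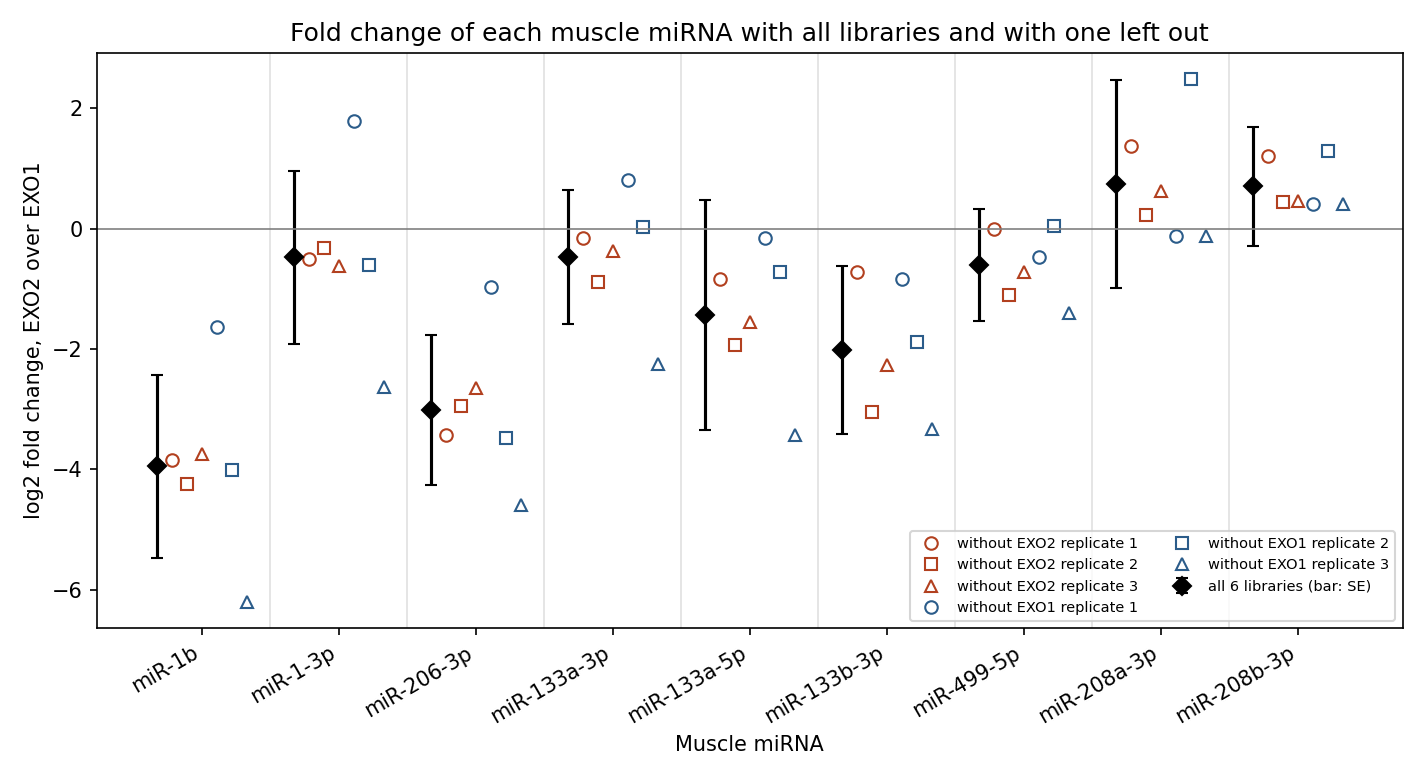
log2 fold change of each muscle miRNA, EXO2 over EXO1, with all 6 libraries (diamonds, bars are limma's standard error) and with each library left out in turn (open symbols). That of miR-1b ranges from -6.21 without EXO1 replicate 3 to -1.63 without EXO1 replicate 1, and that of miR-1-3p crosses 0.

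The miRNAs most like miR-1b across the 6 libraries, among 271 with a mean of at least 10, were scarce ones that peaked in the same library. miR-483-5p had the highest Pearson's r outside the members (0.99), followed by miR-466b-2-3p (0.99) with its copy miR-466b-4-3p (0.99), which had identical values in all libraries so that their reads may be shared, miR-295-3p (0.98) and miR-877 (0.95). miR-483-5p stood at 0, 0.179 and 0 normalized CPM in EXO2, against 91.9, 3.89 and 0 in EXO1. Most like miR-133a-3p were miR-3473 (0.89), miR-149-5p (0.85), miR-320-3p (0.84), miR-151-3p (0.83) and miR-330-5p (0.82). miR-320-3p had 1286, 1368 and 2014 normalized CPM in EXO2, against 9114, 1156 and 447 in EXO1. Among the members, miR-208a-3p and miR-208b-3p were alike (0.91), whereas miR-1b had r of -0.11 and -0.24 with them. All of these r are over 6 libraries that share depth and factor, and several rest on few reads.

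Other miRNAs with known roles in muscle, mostly from mouse, had fold changes of both signs, 8 positive and 16 negative. Of 24 on this list, all tested, none passed an adjusted p of 0.05 by limma. By the thresholds of the methods 2 were higher in EXO2 and 1 was lower, near the 5.85% and 7.32% of all miRNAs. Their median log2 fold change was -0.35, against -0.56 over all 410 miRNAs, of which 256 were negative. miR-486, which promotes muscle growth and is also abundant in red blood cells, was 1 of the higher ones, with 14488, 25395 and 21804 normalized CPM in EXO2, against 13434, 7589 and 3276 in EXO1 (log2 fold change 1.53, standard error 0.62, adjusted p = 0.333 by limma). The other was miR-128-3p (1.57), named after its value was seen, and the lower one was miR-214-3p (-2.93), which represses Ezh2 in myoblasts and is also known from fibroblasts. The 2 others of the 3 most abundant on the list, miR-148a-3p and miR-26a-5p, had log2 fold changes of -0.33 and -1.10. Outside the members, this list held 6.76% to 11.2% of the reads in EXO2 and 14.4% to 19.2% in EXO1. Such a share also depends on the other miRNAs counted. Erythrocyte miRNAs took 58.4% to 68.4% of the same reads in EXO2 and 11.5% to 45.2% in EXO1, and their part in this difference was not tested.

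Lists of markers of other cell types were read in the same libraries. Of 10 erythrocyte miRNAs 6 were higher in EXO2 by the thresholds of the methods, where 5.85% of all miRNAs were, none passed an adjusted p of 0.05 by limma, and their median log2 fold change was 1.47. Outside the members these 10 held 58.4% to 68.4% of the reads in EXO2 and 45.2%, 31.2% and 11.5% in EXO1 replicates 1, 2 and 3, and miR-451-5p, the main one, had 340363, 506938 and 601320 normalized CPM in EXO2 against 252984, 91368 and 58208 in EXO1. The index miRNA of red cell rupture that is paired with it, miR-23a-3p, had a log2 fold change of -0.36. The 4 miRNAs of smooth muscle held 0.501% to 0.990% in EXO2 and 0.955%, 2.99% and 12.1% in EXO1, and the 4 of hepatocytes held 0.536% to 1.09% in EXO2 and 3.88%, 1.30% and 10.3% in EXO1. EXO1 replicate 3, the library with the fewest member reads of EXO1, thus had the highest share for the smooth muscle list. Among the EXO1 libraries it was also highest for the hepatocyte, fibroblast, and platelet and leukocyte lists, and lowest for the erythrocyte list. The 3 of fibroblasts held 0.260% to 0.366% in EXO2 and 0.646% to 5.54% in EXO1, and the 6 of platelets and leukocytes held 2.30% to 2.70% in EXO2 and 2.15% to 3.93% in EXO1. In normalized CPM the log2 fold changes of these 6 were all positive (median 0.80), none past the thresholds of the methods, and for 4 the EXO2 libraries all lay above those of EXO1, as for 11.5% of all miRNAs. By these thresholds 2 of 4 hepatocyte, 2 of 4 smooth muscle and 2 of 3 fibroblast miRNAs were lower in EXO2. Of all miRNAs 7.32% were lower. The median log2 fold changes of these lists were -1.55, -2.18 and -1.62, and no adjusted p was under 0.05 by limma. 1 of the hepatocyte miRNAs, miR-122-3p, was at 0 in every EXO2 library, and no other marker of these lists was at 0 in any library. The part of these cells in the values of the muscle miRNAs was not tested.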

How the data were processed

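Small RNA was sequenced on an Illumina instrument in 3 EXO2 and 3 EXO1 libraries. The authors trimmed the reads, dropped those under 15 nucleotides and used miRDeep2 for annotation. Of their other tools, cutadapt 1.14, Bowtie and edgeR 3.18.1 are listed by the authors in the submitters' processing notes. No genome build or miRNA release is given in the sources used here. The methods name a kit for exosome isolation, the labels centrifugation. The deposited signal per miRNA and library, headed CPM, came out as whole multiples of 1 step in 100% of values (relative tolerance 1e-06), from which reads were computed. A count test was not run because most libraries held too few low values to establish the step by the rule followed here. The authors' log2 values of each group's mean were not used. The table has 468 rows and 420 miRNAs. For the 43 that it lists more than once, none of them a member, only the row with the highest sum was used.

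Tests were limma 3.58.1 in R 4.3.3 (pseudocount 1, Benjamini-Hochberg adjustment) and 2-sided exact permutation tests of log2 ratios (scipy 1.17.1). The limma fit was checked on simulated data with raised levels, and recovery of changes was required only at a spread below that of these libraries. The permutation test was checked on a made-up set of separated values. The members and lists were chosen with earlier results of these data known. The miRNAs named were the members, miR-451-5p, miR-23a-3p, the most abundant 3 of each list where described, and the 5 most like miR-1b or miR-133a-3p. Outside this rule, miR-128-3p, miR-122-3p, miR-184, miR-363-3p and miR-130b-5p were named after their values were seen. Other strands of the member hairpins (7 listed) were not among the kept miRNAs. Same-numbered libraries were not paired by the labels. The alternatives were 3 scalings, no filter, every row, pseudocounts of 0.5 and 0.1, recovered reads for the ratios, an unmoderated variance per miRNA, a block on replicate number, and each library left out. Calculations used Python 3.11.15.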

Additional observations from a re-analysis of the deposited data

How the results depend on the processing

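With 3 libraries per group and an EXO1 group that spread over 569-fold for miR-1b, single libraries set most values. Leaving out each library in turn moved the log2 fold change from -2.63 to 1.79 for miR-1-3p, from -2.25 to 0.81 for miR-133a-3p, from -0.12 to 2.48 for miR-208a-3p and from -1.39 to 0.047 for miR-499-5p, each crossing 0. It moved the log2 ratio difference from -0.63 to 0.98 for miR-1-3p to miR-133a-3p, and from -2.71 to 0.11 for miR-206-3p to miR-133b-3p. The sign was kept over ranges of -6.21 to -1.63 for miR-1b, -4.59 to -0.97 for miR-206-3p, -3.33 to -0.72 for miR-133b-3p, -3.43 to -0.15 for miR-133a-5p (-0.15 without EXO1 replicate 1) and 0.41 to 1.29 for miR-208b-3p (2.13 at a pseudocount of 0.1). The miRNAs past the thresholds of the methods numbered 30 when scaled by library totals, against 54 in the limma fit of all libraries on normalized CPM. They numbered 33 to 103 when a library was left out, 33 without EXO2 replicate 3 and 103 without EXO1 replicate 1. At an adjusted p of 0.05 by limma, 0 to 2 passed when a library was left out (the 2 were miR-184 and miR-363-3p, without EXO1 replicate 1), and 1 passed, miR-130b-5p, with an unmoderated variance per miRNA. The cause of these differences was not tested.

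With the replicate number as a block, 2 passed, miR-1b (adjusted p = 0.0210) and miR-206-3p (adjusted p = 0.00200, both by limma), and 41 passed the thresholds of the methods. Same-numbered libraries did not deviate together over 271 miRNAs (correlations -0.080, 0.045 and -0.18 for numbers 1, 2 and 3). With so few libraries this cannot show whether they shared handling or a batch, which the labels do not give. EXO1 replicate 1 was the shallowest library outside the members, which limits its low values.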
